A study of Mus musculus with 4 samples.

Results

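The regions described here held a peak of every library of the study and lay away from protein-coding genes. Peaks of the 4 deposited lists that overlapped or touched were merged into 229485 regions, and 55402 of these held a peak in all 4 lists. Of those, 18375 were under 1500 bp wide with a midpoint outside every RefSeq protein-coding gene and more than 1 kb from any gene end, and these are the shared regions outside genes. They made up 18375 of the 91452 regions of that width and position with a peak in any list. Peaks of different lists in a merged region need not overlap each other. In 10397 of the 18375, peaks covered at least 50% of the region in every list. The choice used the presence of a peak, a measured value, so presence itself is a description and was not tested.

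The 4 libraries were Omni-ATAC-seq, an assay in which the transposase Tn5 cuts and tags accessible chromatin, from mouse oligodendrocyte progenitor cells (OPCs) and oligodendrocytes (OLs). The cells were made in culture from epiblast stem cells. Both lines used, 129O1 and EpiSC5, gave 1 OPC and 1 OL library, so each group held 2 libraries (129O1 OPC, EpiSC5 OPC, 129O1 OL, EpiSC5 OL). SHH was left out throughout. The OPC medium held 20 ng/mL of bFGF and as much PDGFA, the OPCs were sorted for CD140a and NG2 after 4 passages, and the OLs were sorted for O1. The lines came from the mouse strains 129SvEv and 129S1/SvImJ, the labels name no separate differentiations, and p-values therefore measure the spread between these libraries only. With peaks as the readout, fewer cells with an open site and less opening per cell cannot be told apart.

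Open sites away from genes include enhancers, insulators and the starts of non-coding RNAs. Enhancers bind transcription factors and can act on a gene over a long distance, so the nearest gene is a label of position and not a target. In the oligodendrocyte lineage, Olig2, Sox10, Nkx2-2 and their partners bind many such sites, and OPCs that leave the cell cycle switch from growth factor signalling and progenitor genes to myelin genes.

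The starts of long non-coding RNAs (lncRNAs) are the sites in this set for which promoter sequence was at hand. The 5 printed here start inside shared regions whose covered base pairs differed between OL and OPC, and they were chosen after the values were seen. Each is the RefSeq promoter on GRCm38.p6 (mm10), 250 bases before to 50 after the start, read 5′ to 3′ on the gene's strand. Capitals mark matches, on either strand, to 6 short motifs. The general promoter motifs were the GC box, searched as GGGCGG, and the TATA box, searched as TATAAA. For the factor families the search used TGANTCA for AP-1, ACAAAG for Sox factors, CAGCTG for the E-box of basic helix-loop-helix factors and AGGNGGC for the core of the CTCF motif. The first 3 start in regions that were lower in OL, the last 2 in regions that were higher.
Gm31141, chr9:68562252-68562551, minus strand: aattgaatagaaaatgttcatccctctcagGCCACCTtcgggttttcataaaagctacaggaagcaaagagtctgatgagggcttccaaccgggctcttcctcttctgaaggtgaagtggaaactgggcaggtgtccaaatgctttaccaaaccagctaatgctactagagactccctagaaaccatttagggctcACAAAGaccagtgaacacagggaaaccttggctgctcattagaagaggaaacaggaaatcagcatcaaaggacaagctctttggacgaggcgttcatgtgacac
Gm41996, chr3:9174661-9174960, minus strand: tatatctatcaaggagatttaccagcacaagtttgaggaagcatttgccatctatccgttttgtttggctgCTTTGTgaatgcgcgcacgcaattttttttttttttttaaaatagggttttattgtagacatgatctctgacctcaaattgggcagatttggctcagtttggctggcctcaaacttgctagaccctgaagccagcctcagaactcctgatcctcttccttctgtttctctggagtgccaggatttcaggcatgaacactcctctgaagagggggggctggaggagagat
Gm33801, chr17:25539645-25539944, minus strand: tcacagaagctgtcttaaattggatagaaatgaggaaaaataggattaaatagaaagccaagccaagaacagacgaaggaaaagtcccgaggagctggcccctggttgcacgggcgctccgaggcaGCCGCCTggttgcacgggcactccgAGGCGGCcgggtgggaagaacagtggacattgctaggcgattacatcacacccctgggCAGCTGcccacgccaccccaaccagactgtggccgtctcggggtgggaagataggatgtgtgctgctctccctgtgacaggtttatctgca
Gm35193, chr13:60042953-60043252, minus strand: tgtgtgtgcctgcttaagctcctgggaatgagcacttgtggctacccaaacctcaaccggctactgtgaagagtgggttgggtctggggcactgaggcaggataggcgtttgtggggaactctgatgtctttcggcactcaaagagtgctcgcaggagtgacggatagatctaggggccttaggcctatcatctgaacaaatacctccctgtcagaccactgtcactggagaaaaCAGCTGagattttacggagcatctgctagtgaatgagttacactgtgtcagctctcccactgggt
Gm32531, chr8:103270966-103271265, plus strand: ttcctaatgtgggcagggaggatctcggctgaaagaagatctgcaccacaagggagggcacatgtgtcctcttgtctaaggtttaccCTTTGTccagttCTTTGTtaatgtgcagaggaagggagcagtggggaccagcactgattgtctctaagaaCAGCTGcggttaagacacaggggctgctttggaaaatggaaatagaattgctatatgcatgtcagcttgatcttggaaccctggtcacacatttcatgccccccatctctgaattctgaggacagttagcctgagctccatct

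The promoters of Gm31141 and Gm32531 lay wholly inside their regions, and 86 bases of the Gm41996 promoter, 250 of Gm33801 and 213 of Gm35193 did. The Sox motif stood once in Gm31141 and in Gm41996 and 2 times in Gm32531, the E-box once in Gm33801, Gm35193 and Gm32531, and the CTCF core 2 times in Gm33801 and once in Gm31141, with no overlap between matches. Over all 32851 RefSeq promoters, 18.7% held the Sox motif, 16.3% the E-box, 29.4% the CTCF core and 35.7% the GC box. Of the 536 lncRNA promoters whose start lay in a shared region outside genes, 24.6% held the Sox motif, 19.4% the E-box, 31.7% the CTCF core and 34.3% the GC box. Among the 6291 lncRNA promoters outside genes with no peak in any list, the GC box stood in 6.49% the CTCF core in 16.0%, the Sox motif in 23.9% and the E-box in 16.2%, and the median GC content was 46.3% against 53.0% for those that start in a shared region. A match is a description of letters and not of a bound site.

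As a check of the cells, the gene ends of the marker lists were looked up in each list of peaks. A peak lay within 1 kb of an end for 25 to 27 of the 29 OPC identity genes and 23 to 28 of the 30 myelin genes in each of the 4 libraries, so these lists did not separate the groups. Such a peak also lay at 15 to 17 of the 22 neuron genes and 11 to 15 of the 19 astrocyte genes, so the check says little about cell identity. Pluripotency genes had such a peak in 5 and 7 of 13 cases in OPC and in 4 and 5 in OL, and microglia and blood genes in 5 of 13 in both OPC libraries and 4 in both OL libraries. For vascular and mesenchymal genes the count was 12 and 9 of 18 in OPC and 7 and 5 in OL. What part cells of other types had in the results below was not tested.

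Shared regions outside genes were narrow and often far from a gene. Their median width was 393 bp (quartiles 258.5 and 595 bp), and their median distance to the nearest protein-coding gene was 25992 bp, with 3921 of them (21.3%) more than 100 kb away. In each list they held between 13.9% and 16.5% of all base pairs under peaks. The farthest, on chromosome 18, lay 2188 kb from Pik3c3 and covered 396 and 446 bp in 129O1 and EpiSC5 OPC and 287 and 439 bp in OL. The next 4 lay 1962 to 2138 kb from Cntnap5b, Pcdh20 (2 regions) and Pcdh9.

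A pair of measures was used in each library. Covered bp is the number of base pairs of a region under that library's peaks. Fold rank places the authors' fold enrichment of the region's best peak among all 55402 shared regions of that list, from 0 (lowest) to 100 (highest), because folds are comparable only within a list. The median region outside genes covered 261 bp in 129O1 OPC, 326 bp in EpiSC5 OPC, 232 bp in 129O1 OL and 240 bp in EpiSC5 OL. Both OL medians lay below both OPC medians, a mean difference of -57.5 bp (exact permutation test over libraries, two-sided p = 0.33, the smallest that 2 against 2 libraries allow). Without EpiSC5 OPC the difference was -25 bp and without 129O1 OPC -90 bp. The same order held inside gene bodies (274 and 332 bp in OPC, 254 and 262 bp in OL) and at gene ends (775 and 814 bp, 668 and 647.5 bp), and log2 covered bp was centred on each library's median ratio before single regions were compared. The median fold rank was 54.9 in 129O1 OPC, 55.6 in EpiSC5 OPC, 53.5 in 129O1 OL and 54.0 in EpiSC5 OL (exact p = 0.33). In every library regions outside genes ranked above gene-body regions, whose medians were 45.3 to 46.8, although they covered fewer base pairs. Gene-end regions ranked close to those outside genes, with medians of 53.0 and 52.0 in OPC and 55.8 and 54.4 in OL. In both OL libraries the gene-end median was the higher one.

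**Figure D1:**
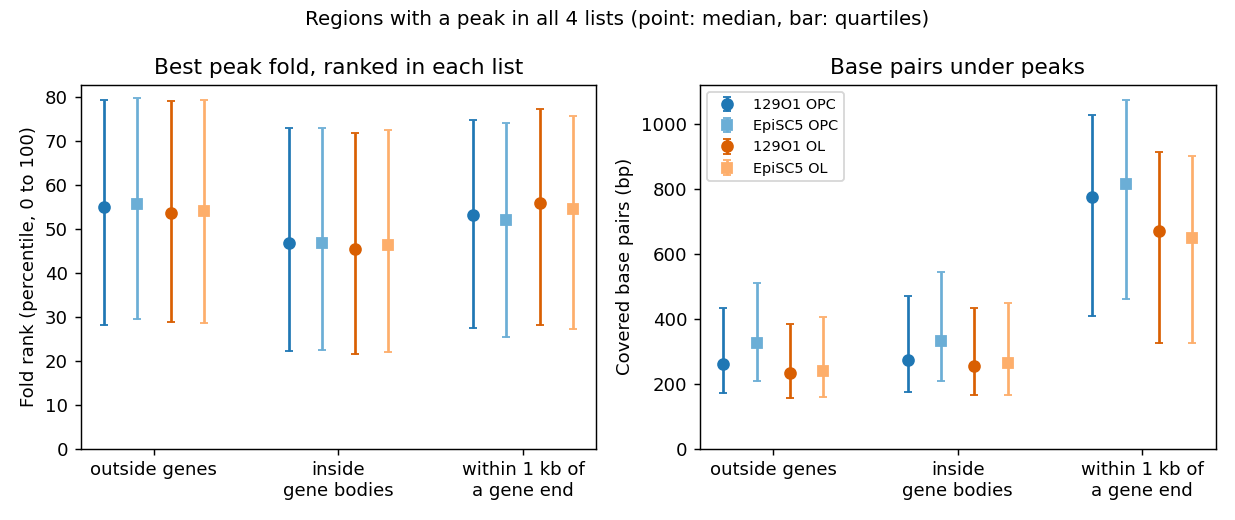
Fold rank (left, percentile) and covered base pairs (right, bp) of regions with a peak in all 4 lists, by position and library; points are medians over regions and bars reach from the first to the third quartile. Outside genes the medians ran from 232 to 326 bp and from 53.5 to 55.6 in fold rank, and gene-end regions were wider.

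Next to the limits of the choice, kept and left-out regions had these values. The 3 widest regions kept, at 1494 bp or more, lay near Cpeb4, Odc1 and Pou3f3 and covered between 475 and 1494 bp in single libraries. The narrowest left out, 1504, 1504 and 1505 bp near Bod1, Lrrc74a and Sbpl, covered 669 to 1488 bp. The 3 regions kept at no more than 1002 bp from a gene end (among them those near Rgs1 and Nub1) had fold ranks from 1.05 to 88.0, and those left out at 997 to 1000 bp (Tex2, Rfxank, Nxn) from 3.01 to 77.

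Between OL and OPC, peaks covered more base pairs in some of these regions and fewer in others. Covered bp rose in 278 regions and fell in 374 of 18375 (limma on centred log2 covered bp, two-sided, Benjamini-Hochberg adjusted p below 0.05 over all shared regions), which is 1.51% and 2.04%. Over all 55402 shared regions 3.13% were called, 1.45% higher and 1.68% lower, so the share outside genes (3.55%) was near that of the background. At an unadjusted p below 0.05 the counts were 2116 higher and 2606 lower, or 11.5% and 14.2%, beside 24.3% of all shared regions (11.2% higher, 13.0% lower). Both OL values lay above both OPC values in 5052 regions and below in 5472, or 27.5% and 29.8%, beside 57.4% of all shared regions (29.0% and 28.4%). In the 278 that rose, the median region covered 197 and 230 bp in 129O1 and EpiSC5 OPC and 631.5 and 649 bp in OL, a median 3.04-fold difference. In the 374 that fell, it covered 621 and 700 bp in OPC and 159 and 161 bp in OL, a median 3.35-fold difference. The merged regions were a median of 688 bp wide where covered bp rose and 730 bp where it fell. Regions not called were a median of 385 bp wide, and the part of width in the shares called was not tested. In each of the 652, both OL values lay beyond both OPC values. The calls were made on these same values, so this is a description and not separate support. Fold rank moved the same way in 234 of the 278 and 330 of the 374, and its median went from 28.1 and 35.1 in OPC to 71.6 and 76.6 in OL for the first set and from 65.9 and 65.6 to 25.4 and 26.3 for the second. Both measures come from the same peaks, and their OL minus OPC differences had Pearson's r = 0.64 over all 18375 regions. The shared direction is therefore not separate support either. A region needed a peak in every list to be included, so regions that closed fully in a group are absent by construction, and in 142 and 287 of the called regions both libraries of the lower group covered under 250 bp. In 22 and 33 of them at least 1 library stood at its list's shortest peak (78 to 100 bp), where a smaller value was not possible.

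Adjusted p-values of the called regions lay between 0.0373 and 0.0498, close to the threshold, and no call was left when 1 library was set aside. Without 129O1 OPC, EpiSC5 OPC, 129O1 OL or EpiSC5 OL in turn the smallest adjusted p was 0.119, 0.0934, 0.0698 and 0.0521, and 0 regions were called. With the cell line as a block, since both cell types came from the same 2 lines, 565 regions rose and 695 fell (6.86%, beside 6.32% of all shared regions), among them each of the 278 and 374. Counts with this block are given below where they differ by more than 1.5 times. No scaling between libraries gave 158 higher and 562 lower, and scaling to list totals 796 higher and 1516 lower, and these shifted the median log2 difference of all shared regions by -0.21 and -0.09. With each peak cut to 200 bp around its summit, 395 rose and 70 fell. A region with 1 peak in each list then has the same length in every library, so that setting counts peaks and does not test the direction of a change in width.

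**Figure D2:**
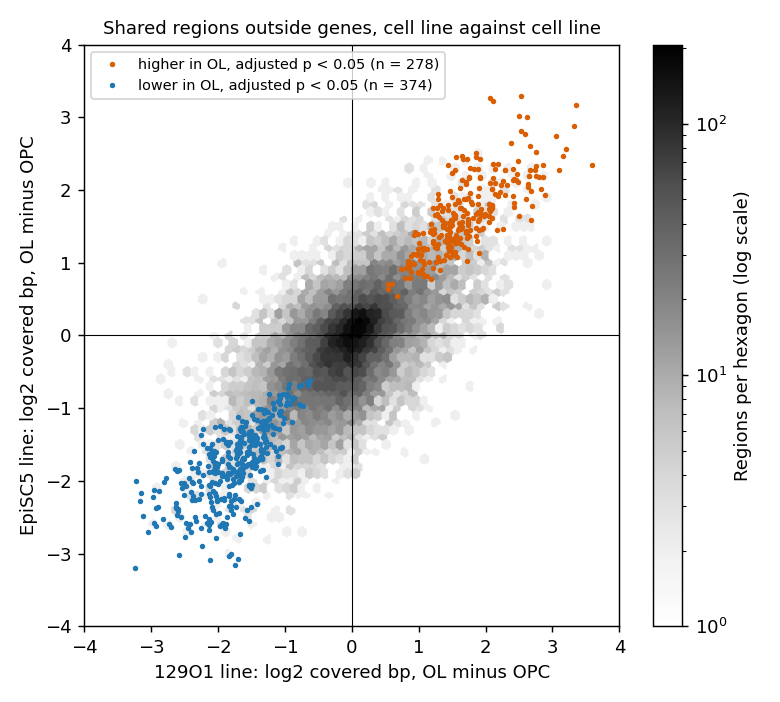
Difference in log2 covered bp between OL and OPC for each of the 18375 shared regions outside genes in the 129O1 line (horizontal) and the EpiSC5 line (vertical); grey hexagons count regions on a log scale and coloured points are the regions called over all 4 libraries. The 278 higher regions lie in the upper right and the 374 lower ones in the lower left, that is, in the same direction in both lines. The calls were made on these same values.

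Fold rank gave no region past the threshold. With limma the smallest adjusted p was 0.0810 and 0 of 18375 regions were called (0% of all shared regions too), also with the cell line as a block (smallest adjusted p 0.0994). At an unadjusted p below 0.05 there were 2241 regions with a higher and 2484 with a lower rank in OL, or 12.2% and 13.5%, beside 11.5% and 12.4% (together 23.9%) of all shared regions. Both OL ranks lay above both OPC ranks in 4793 regions and below in 5091, or 26.1% and 27.7%, beside 29.6% and 26.5% (together 56.1%) of all shared regions. When regions were ranked by the −log10 q of the best peak instead of its fold, 1069 were called higher and 924 lower. The share of all shared regions called under that ranking is not given here, so these counts say nothing particular about regions outside genes. The 2 lines ran together: the OL minus OPC rank difference of 129O1 and EpiSC5 had Pearson's r = 0.59 across the 18375 regions and the same sign in 69.4% of them, beside 0.62 and 71.3% for gene-body regions. This is a correlation over regions that share libraries, given as a description. The median region differed between cell types by 13.5 points of rank, between the OPC libraries of the 2 lines by 10.9 and between the OL libraries by 9.20.

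The largest gain in covered bp lay 43.5 kb from Map4k4, a MAP kinase kinase kinase kinase, at chr1:39856917-39857908 (mm10). It covered 85 bp in 129O1 OPC, 129 bp in EpiSC5 OPC, 797 bp in 129O1 OL and 957 bp in EpiSC5 OL. Both OL libraries stood far above both OPC libraries, a 9.63-fold difference (log2 3.27, adjusted p = 0.0373), and the fold rank went from 9.75 and 8.93 to 74.4 and 66.9. A region 228 kb from Rasgrp1, a Ras guanine nucleotide exchange factor, covered 78 and 100 bp in OPC and 711 and 603 bp in OL, 8.56-fold more, with the rank going from 9.75 and 23.2 to 93.0 and 97.0. Its OPC values are the shortest peaks of those lists. The region 27.6 kb from Mitf, a basic helix-loop-helix leucine zipper factor, widened from 115 and 200 bp to 966 and 971 bp (7.37-fold). It ranked low in both groups, 5.17 and 4.37 in OPC and 30.0 and 28.6 in OL, below the middle of the scale in each library. The other 9 of the 12 largest gains lay nearest to Tacc3, Melk, Grik3, LOC108168726, Snx7, Setd4, Sez6l, Dio2 and Arrdc4, with 6.38- to 7.84-fold differences. Melk and Tacc3 are known for roles in mitosis, Grik3 encodes a kainate receptor subunit, and Dio2 the deiodinase that makes active thyroid hormone.

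The largest loss lay 34.0 kb from Mef2d, a MADS-box transcription factor, at chr3:88205510-88206667. It covered 934 bp in 129O1 OPC, 1158 bp in EpiSC5 OPC, 90 bp in 129O1 OL and 104 bp in EpiSC5 OL, 9.31-fold less (adjusted p = 0.0373). Its fold rank was low everywhere, 3.70 and 4.30 in OPC and 0.829 and 0.734 in OL. The region 129 kb from Cxxc4, an inhibitor of Wnt signalling, fell from 579 and 871 bp to 88 and 88 bp (6.99-fold). Here the strength fell with the extent, from ranks of 92.9 and 92.0 to 15.1 and 41.2. The region 91.1 kb from Rora, a nuclear receptor, holds the start of Gm31141, the first promoter printed above. It covered 793 and 1026 bp in OPC and 81 and 174 bp in OL (6.58-fold, adjusted p = 0.0448), and its rank went from 89.6 and 85.5 to 31.1 and 20.5. The other 9 lay nearest to Gramd3, Gm41291, Bcas1, Ccn4, Enpp6, Nedd1, Inhbb, 4931429L15Rik and Pim1, with 6.28- to 7.35-fold differences. Bcas1 and Enpp6 are markers of newly formed oligodendrocytes, and the regions near them are described with their list below.

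By fold rank the widest swings reached across nearly the whole scale, although none passed the adjusted threshold. A region 88.2 kb from Arhgap21, a GTPase activating protein, ranked 2.03 in 129O1 OPC, 6.81 in EpiSC5 OPC, 93.3 in 129O1 OL and 97.5 in EpiSC5 OL (limma, adjusted p = 0.0810). One 226 kb from Slc7a11, the cystine/glutamate exchanger, went from 13.7 and 15.6 to 98.0 and 98.8 and was called in covered bp (101 and 105 bp to 348 and 464 bp, 4.50-fold). In the other direction, a region 186 kb from Kif2a, a microtubule-depolymerising kinesin, went from 99.2 and 99.9 to 20.0 and 8.20, and one 37.2 kb from Sik1, a salt-inducible kinase, from 93.0 and 80.8 to 1.54 and 2.48. In none of these 4 regions did the ranks of the groups overlap. Of all regions outside genes, 26.1% had both OL ranks above both OPC ranks and 27.7% had both below. In covered bp the Arhgap21 and Sik1 regions were called only with cell line as a block (limma, adjusted p = 0.0396 and 0.0439, against 0.0545 and 0.0768).

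Genes of the lineage were then followed through fixed lists, each region counted with its nearest gene. The lists were chosen with earlier results of these data known, so their counts are descriptions. Of the 111 regions nearest to an OPC identity gene, 2 rose and 4 fell (5.41%, against 3.55% of all regions outside genes). With the block, 3 rose and 9 fell (10.8%, against 6.86% of all regions outside genes). The shares of the lists below stand beside the same 3.55% and 6.86%. The median difference of the 111 was 0.12 in log2 covered bp, beside -0.03 over all regions outside genes. Both OL values lay above both OPC values in 47 of them and below in 29, beside 27.5% and 29.8% of all regions outside genes. Those that fell included regions near Sox6, Xylt1 and Olig1, which encode a SoxD factor, a xylosyltransferase that starts proteoglycan chains, and a basic helix-loop-helix factor of the lineage. Near Sox6, 160 kb away, the region covered 653 and 886 bp in OPC and 221 and 209 bp in OL (3.07-fold less). Near Olig1, 6.9 kb away, it covered 684 and 707 bp in OPC and 243 and 288 bp in OL (2.28-fold less, adjusted p = 0.0475). The 2 that rose lay 102 kb from Sox5 (229 and 281 bp to 720 and 823 bp, 3.50-fold) and 132 kb from Serpine2, a serine protease inhibitor (220 and 316 bp to 841 and 850 bp, 3.70-fold). Regions near the SoxD genes Sox5 and Sox6 thus moved opposite ways, and the difference between them was not tested.

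Regions near immature oligodendrocyte genes had the highest share of calls among the 12 lists. Of 53, 6 fell and 1 rose (13.2%), or 6 and 3 with the block (17.0%), with a median log2 difference of 0.03 over the 53. The 6 that fell lay near Nfasc (2 regions), Bcas1 (2), Enpp6 and Ust, genes known to be switched on as OPCs differentiate. Nfasc encodes neurofascin, an adhesion molecule of the axon-glia junction. A region 6.4 kb from it covered 776 and 714 bp in OPC and 140 and 104 bp in OL (5.34-fold less). Its fold rank fell to near 0, from 37.0 and 40.5 to 0.185 and 0.519. The 2 regions 35.9 and 56.6 kb from Bcas1 covered 861 and 1293 bp, and 782 and 1015 bp, in OPC. In OL they covered 101 and 177 bp, and 153 and 220 bp, 6.84- and 4.21-fold less. The region 14.0 kb from Enpp6, which encodes a choline phosphodiesterase, went from 621 and 926 bp to 80 and 132 bp (6.39-fold less). The shortest peak of the 129O1 OL list is 80 bp, so that value stood at the limit. The 1 that rose, 18.4 kb from the BMP ligand gene Bmp4, covered 628 and 637 bp in OPC and 1147 and 1136 bp in OL (2.08-fold more). Of 47 regions near myelin genes 2 fell and 0 rose (4.26%). Their median log2 difference was 0.05, and both OL values lay above both OPC values in 17 and below in 11. The shares over all regions outside genes were 27.5% and 29.8%. The 2 lay near the tetraspanin gene Tspan2 (502 and 590 bp to 160 and 128 bp) and near Anln (819 and 885 bp to 356 and 399 bp). At Anln the groups overlapped in fold rank (88.5 and 73.2 in OPC, 87.9 and 89.2 in OL).

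**Figure D3:**
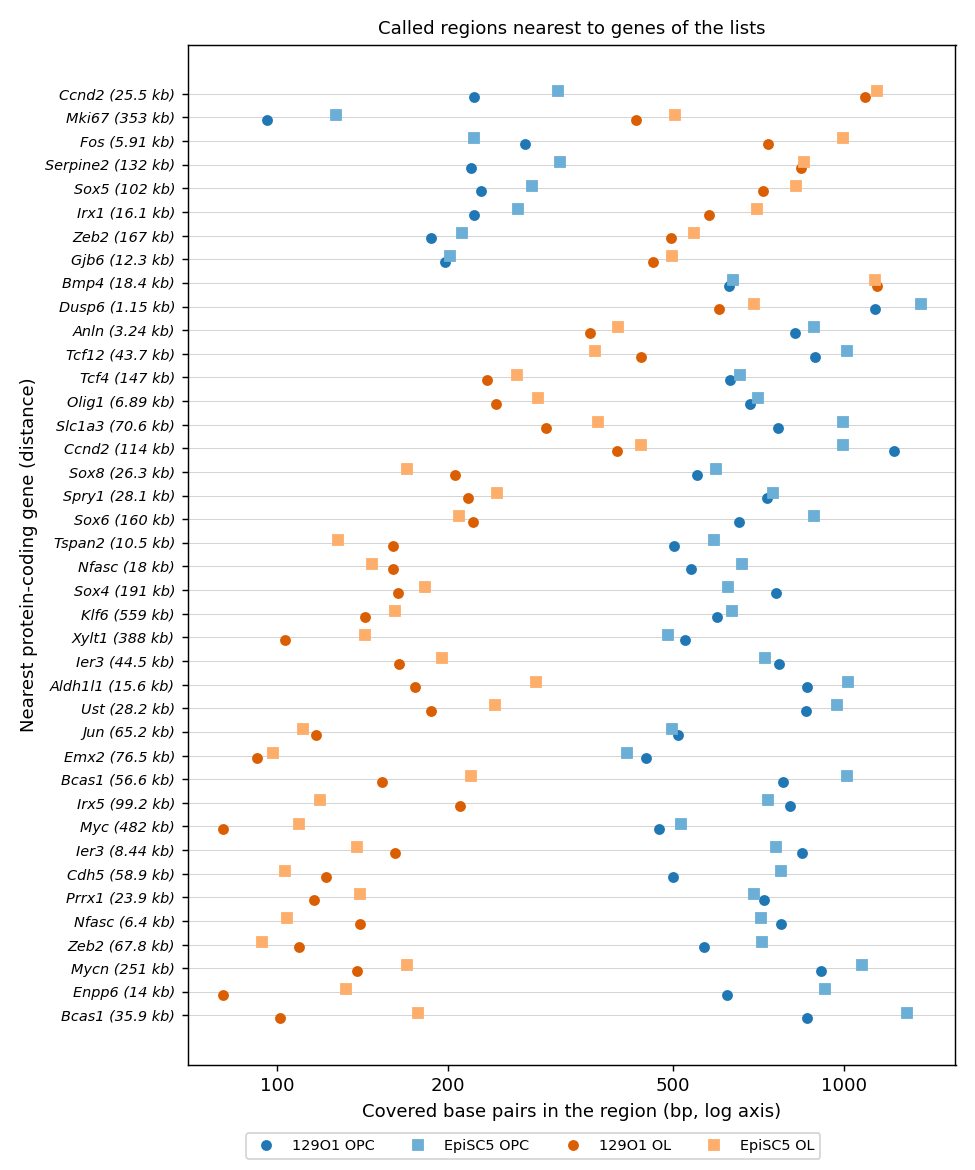
Covered base pairs (bp, log axis) in each library for 40 regions with a call whose nearest gene is on one of the lists, ordered by the difference between OL and OPC; the distance to the gene is given beside its name, circles are 129O1 and squares EpiSC5. In each row the orange OL points lie apart from the blue OPC points, with more rows to the left (lower in OL) than to the right. The rows were chosen by a call on these same values.

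Transcription factor genes of the lineage had the most regions, 254, of which 2 rose and 10 fell (4.72%), or 8 and 16 with the block (9.45%). The calls did not describe the list as a whole, whose median log2 difference was 0.05. Both OL values lay above both OPC values in 88 of the 254 and below in 71, beside 27.5% and 29.8% of all regions outside genes. Besides those near Sox5, Sox6 and Olig1 they included regions near Prrx1, Zeb2 (2 regions), Tcf12, Klf6, Sox4, Sox8 and Tcf4. Near Zeb2, which encodes a Smad-interacting repressor needed for myelination, one region rose and one fell. The region 166.5 kb away went from 187 and 212 bp to 495 and 543 bp (3.01-fold more), and the one 67.8 kb away from 566 and 716 bp to 109 and 94 bp (5.45-fold less). The region 26.3 kb from Sox8, a SoxE factor, is the one that holds the start of Gm33801. It covered 550 and 596 bp in OPC and 206 and 169 bp in OL (2.66-fold less, adjusted p = 0.0465). The region nearest to Sox10, 11.6 kb away, covered 215 and 359 bp in OPC and 438 and 646 bp in OL and was not called (adjusted p = 0.113), but passed with the block (adjusted p = 0.0456). So did the region 4.2 kb from Sox8, which covered 375 and 660 bp in OPC and 132 and 129 bp in OL (3.30-fold less, adjusted p = 0.0552, and 0.0416 with the block).

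Among 91 regions near cell cycle and Myc genes 2 rose and 3 fell (5.49%), or 4 and 8 with the block (13.2%). They included opposite changes at Ccnd2, which encodes cyclin D2. The region 25.5 kb away went from 222 and 313 bp to 1092 and 1143 bp (4.89-fold more) and the one 114 kb away from 1225 and 997 bp to 398 and 438 bp (2.29-fold less). Regions 251 kb from Mycn and 482 kb from Myc fell 5.62- and 4.58-fold, and one 353 kb from Mki67, a marker of cycling cells, rose 4.87-fold. Of the 80 regions near genes of the growth factor response 5 fell, near Spry1, Jun, Dusp6 and Ier3 (2 regions), and 1 rose, near Fos. With the block these counts were 8 and 2 (12.5%, against 7.5% called without it). Jun and Fos encode partners in the AP-1 factor, and Spry1 and Dusp6 encode feedback inhibitors of ERK signalling. The region 65.2 kb from Jun covered 510 and 497 bp in OPC and 117 and 111 bp in OL (3.83-fold less), while the one 5.9 kb from Fos covered 274 and 222 bp in OPC and 734 and 997 bp in OL (4.00-fold more). The smallest of these changes was at Dusp6, 1.15 kb away, from 1135 and 1367 bp to 601 and 693 bp (1.67-fold less). Its fold rank went the other way, from 4.01 and 4.60 in OPC to 8.55 and 6.44 in OL.

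Regions near genes of other cell types showed calls as well. Of 52 near astrocyte genes 2 fell (Aldh1l1 and Slc1a3, 3.63- and 2.29-fold) and 1 rose (Gjb6, 2.77-fold), and of 39 near vascular and mesenchymal genes 2 fell (Prrx1 and Cdh5, 4.82- and 4.81-fold). Of 77 near Hox and patterning genes 2 fell (Irx5 and Emx2) and 1 rose (Irx1). The shares called were 5.77% for astrocyte, 5.13% for vascular and mesenchymal and 3.90% for Hox and patterning genes. With the block the counts lower and higher were 4 and 1 (9.62%), 3 and 1 (10.3%) and 5 and 4 (11.7%), in that order. None of the 36 near neuron genes, 21 near microglia and blood genes or 50 near pluripotency genes was called. With the block, regions near Nefl, Otx2, Nanog and Sox2 (2 regions) were lower and 1 near Ptprc was higher. These were 2.78% of the neuron, 8% of the pluripotency and 4.76% of the microglia and blood regions. The strongest region of those 3 lists lay 42.9 kb from Neurod1, 18.2 kb from Ptprc and 5.4 kb from T, the brachyury gene. Their fold ranks were 97.2 to 99.1, 85.1 to 91.4 and 93.7 to 99.2 over the 4 libraries.

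At the loci of the lineage factors few shared regions were called, although several came close to the threshold, and a region that misses it is not shown to be unchanged. Olig1 was the nearest gene of 9 regions and Olig2 of 3, and 1 of the 12 was called, the one given above. Of the 9 near Olig1, 5 had a mean fold rank under 10, and the median number of base pairs under other peaks in the surrounding 10 kb was 802.5, beside 104 for all regions outside genes. One region 17.9 kb from Olig2 stood out in strength, with ranks of 81.9 and 86.8 in OPC and 93.0 and 93.1 in OL. Sox2 was the nearest gene of 27 regions, with 0 called (2 with the block) and mean ranks from 0.319 to 95.7. The region 436 kb from Sox2 covered 908 and 890 bp in OPC and 270 and 143 bp in OL (3.96-fold less, adjusted p = 0.0527, and 0.0301 with the block). Pdgfra, which encodes the PDGF receptor also named CD140a, had 6, with 0 called (2 with the block) and mean ranks from 50.8 to 92.7. The region 8.0 kb from Pdgfra covered 323 and 342 bp in OPC and 96 and 117 bp in OL, at an adjusted p of 0.0515 (0.0483 with the block). The one 139 kb away covered 821 and 794 bp in OPC and 388 and 366 bp in OL (adjusted p = 0.0527, and 0.0425 with the block). The genes with the most shared regions nearest to them were Zfp608 (37, 1 of them higher), Sox2 (27), Cd83 and Mn1 (23 each) and Tle3 (21, 1 of them lower). With the block, 3 rose near Zfp608 (8.11%), 4 fell near Mn1 (17.4%) and 2 fell near Tle3 (9.52%), beside 6.86% of all regions outside genes.

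Many of the regions lay at non-coding genes. Of the 18375, 4822 (26.2%) overlapped a non-coding gene or lay within 1 kb of one, 3692 of them at lncRNAs. An lncRNA start with a RefSeq promoter lay in 471 regions, and of these 7 rose and 22 fell (6.16%, beside 3.55% of all regions outside genes, 1.51% higher and 2.04% lower), with a median log2 difference of -0.11. These 471 were wide, with a median of 671 bp, and covered a median of 541 and 613 bp in OPC and 418 and 433 bp in OL. The Gm41996 start, 76.4 kb from Zbtb10, lay in a region of 1021 and 1076 bp in OPC and 167 and 211 bp in OL (4.84-fold less, adjusted p = 0.0373). The 2 starts in rising regions printed above were those of Gm35193, 132 kb from Gas1 (132 and 191 bp to 590 and 600 bp, 4.33-fold), and Gm32531, 486 kb from Cdh11 (243 and 267 bp to 949 and 883 bp, 4.15-fold). The start of Mir100hg, the host gene of the miR-100 cluster, lay in a region that went from 621 and 644 bp to 216 and 219 bp (2.52-fold less), although its fold rank did not fall (53.2 and 48.3 in OPC, 63.2 and 57.1 in OL).

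MicroRNA hairpins were rare in these regions, and none of their regions was called without the block. Of 322 hairpins outside protein-coding genes, 26 lay in 23 shared regions (8.07%). They included Mirlet7i, Mir9-3, Mir132 with Mir212, Mir137, Mir129-2, Mir210 and Mir203. The Mirlet7i region was broad and steady, with 1342 and 1283 bp in OPC and 1223 and 1232 bp in OL. The Mir129-2 region, 59.1 kb from Ttc17, narrowed from 671 and 706 bp to 195 and 305 bp (2.45-fold, adjusted p = 0.0708), and passed with the block (adjusted p = 0.0493). In fold rank 2 of the 23 regions were higher and 4 lower at an unadjusted p below 0.05. Of all regions outside genes, 12.2% were higher and 13.5% lower at that threshold. The Mir7239 region, 3.8 kb from Nipal4, went from 10.9 and 13.2 in OPC to 66.0 and 66.5 in OL.

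The Mir344 family supplied 8 of the 26 hairpins, each in its own shared region, over 401 kb of chromosome 7 between Gm51483 and Ndn. MicroRNAs pair with their targets through the seed, bases 2 to 8, so the RefSeq mature sequences (GRCm38.p6) are shown with the seed in capitals, grouped by seed and in chromosome order.
mmu-miR-344d-3-5p: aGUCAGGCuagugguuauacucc
mmu-miR-344c-5p: aGUCAGGCugcuggcuagaguac
mmu-miR-344-5p: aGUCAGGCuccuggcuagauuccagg
mmu-miR-344g-5p: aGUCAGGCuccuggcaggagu
mmu-miR-344f-5p: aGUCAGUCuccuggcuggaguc
mmu-miR-344d-2-5p: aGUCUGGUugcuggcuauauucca
mmu-miR-344i: aAGUCAGGcuccuggcugga
mmu-miR-344c-3p: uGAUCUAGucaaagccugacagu
mmu-miR-344-3p: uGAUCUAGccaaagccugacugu
mmu-miR-344d-3p: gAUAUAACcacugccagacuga
mmu-miR-344g-3p: cAGGCUCUagccaggggcuuga
mmu-miR-344f-3p: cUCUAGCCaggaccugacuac
The first 4 share 1 seed and the 3p forms of miR-344c and miR-344 another, and the hairpins were 54.3% to 91.3% identical in pairs, with a median of 63.2%. Reads of near-identical copies can map to more than 1 of them, and the handling of such reads is not given in the sources used here.

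Mir344c, Mir344 and Mir344-2, neighbours in the middle of the cluster, ranked very high in OPC and lower in OL. Mir344c ranked 98.9 and 98.8 in 129O1 and EpiSC5 OPC and 69.8 and 76.7 in OL. Mir344 ranked 97.5 and 97.7 in OPC and 57.2 and 43.6 in OL. Mir344-2 ranked 94.5 and 95 in OPC and 67.1 and 53.9 in OL. In all 3 the groups did not overlap, while covered bp differed by 1.11- to 1.18-fold. Both OL ranks lay below both OPC ranks in 27.7% of all regions outside genes, and these 3 were picked after their values were seen. Mir344d-2 went the other way, from 46.8 and 54.2 in OPC to 93.8 and 94.7 in OL, and Mir344i stayed at 98.1 to 99.2 in all 4 libraries. No rank difference in the cluster passed the adjusted threshold. Mir344d-3 narrowed from 379 and 379 bp to 153 and 147 bp (2.19-fold, adjusted p = 0.0676).

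**Figure D4:**
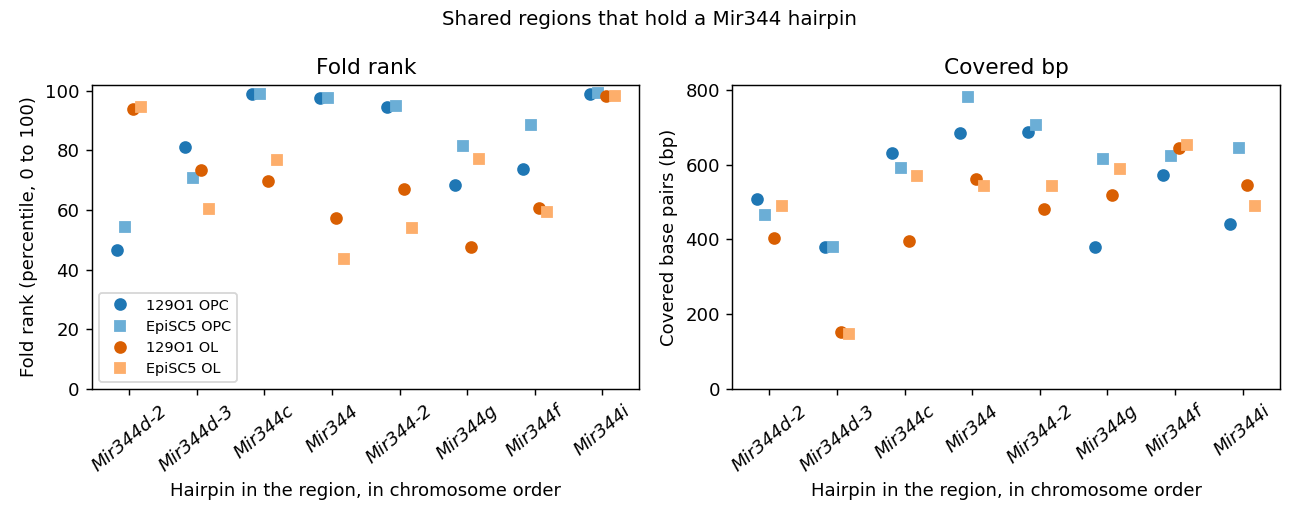
Fold rank (left, percentile) and covered base pairs (right, bp) in each library for the 8 shared regions that hold a Mir344 hairpin, in chromosome order; circles are 129O1 and squares EpiSC5. Mir344c, Mir344 and Mir344-2 lie at 94.5 to 98.9 in OPC and 43.6 to 76.7 in OL, Mir344d-2 lies higher in OL, and Mir344i is near the top in all 4.

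Genes of short structural RNAs formed another group. Shared regions lay at 150 of the 332 tRNA genes outside protein-coding genes (45.2%) and at 30 of the 56 rRNA genes (53.6%), beside 28.3% of lncRNA genes and 3.48% of pseudogenes. None of the 128 regions at tRNA genes or the 30 at rRNA genes was called in covered bp, with or without the block. The median fold rank at tRNA genes was 22.0 and 18.5 in OPC and 32.2 and 29.3 in OL, and at rRNA genes 0.83 and 1.23 in OPC and 1.83 and 0.99 in OL. Both kinds come as near-identical copies, so the reads of single copies are uncertain.

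Over all regions outside genes, rank was lower where more other open chromatin lay around the region. The sources used here do not say how the background behind each fold was set, or whether it takes in neighbouring peaks. What part that had in these ranks was not tested. The 4782 regions with no other peak in the 10 kb around their midpoint had a median rank of 70.6 to 74.5 in the 4 libraries. With 250 to 500 bp of other peaks it was 38.4 to 41.0, and with 1000 to 2000 bp, 4.84 to 5.50. Regions at rRNA genes ranked below others with as much around them: they had a median of 669 bp of other peaks and a median mean rank of 1.53, against 20.1 for all regions with 500 to 1000 bp. Across the 18375 regions Pearson's r was -0.62 between mean rank and mean base pairs of neighbouring peaks, a description of regions that share libraries. Rank also rose with the distance to a gene, from a median of 36.8 to 40.6 at 1 to 5 kb to 61.5 to 71.1 beyond 250 kb. Between the same bins the median base pairs of other peaks fell from 230.75 to 44.25. The share of regions called in covered bp was 1.78% higher and 2.3% lower with no neighbouring peak, and 0.21% and 1.03% at 1000 to 2000 bp. Median width also fell between these bins, from 415 to 303 bp, and its part in the shares was not tested. The difference between OL and OPC in rank and that in neighbouring base pairs had r = -0.28, and the part of one in the other was not tested.

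**Figure D5:**
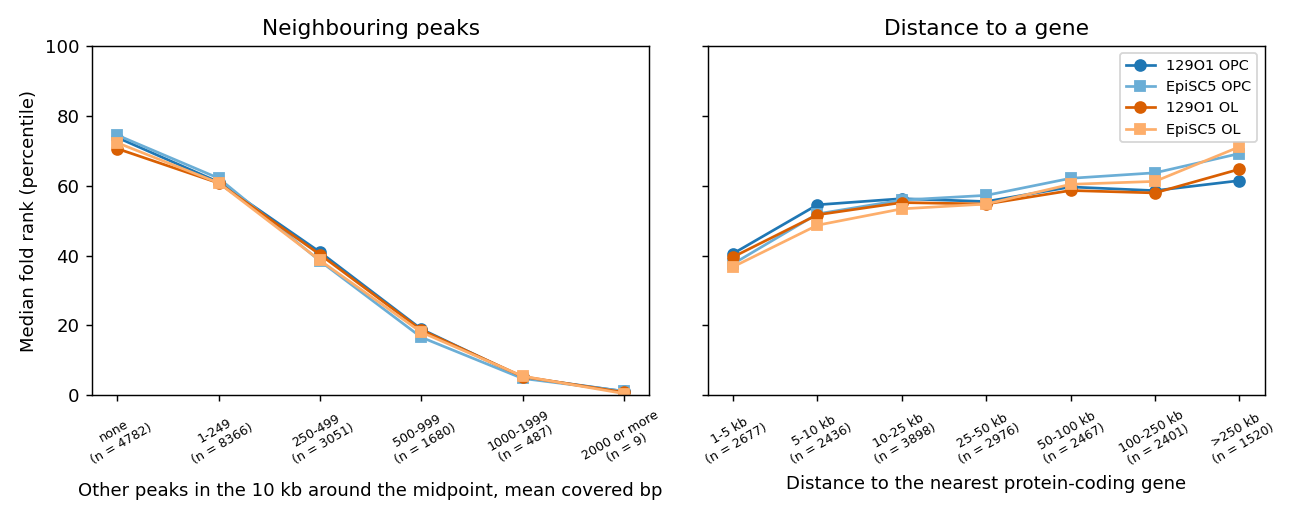
Median fold rank (percentile) of shared regions outside genes in each library, by the base pairs of other peaks in the 10 kb around the midpoint (left) and by the distance to the nearest protein-coding gene (right), with the number of regions under each bin. The 4 libraries lie close together, falling from 70.6 to 74.5 with no other peak to 4.84 to 5.50 at 1000 to 2000 bp; the last bin holds 9 regions.

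Of 9217 windows of 100 kb with a shared region, 23 held 10 or more, up to 22. That one, chr6:114500000-114599999 between Hrh1 and Atg7, had median ranks of 5.71 and 1.87 in OPC and 4.13 and 1.73 in OL, with no annotated tRNA, rRNA, lncRNA or miRNA gene. The next 2, chr8:123500000-123599999 and chr8:123600000-123699999 near Gas8 and Rhou, held 21 and 16 regions, of which 19 and 10 lay on 5S rRNA genes. Their median ranks were 0.86 to 1.98 and 0.92 to 2.48 over the 4 libraries. The fourth, chr6:47700000-47799999, held 15 regions and 2 Y RNA genes, with a median mean rank of 6.24. The window chr13:23400000-23499999 held 14 regions and 22 tRNA genes, with a median of 11.8. A further 14 regions lay in chr15:98900000-98999999, around the alpha-tubulin genes Tuba1a, Tuba1b and Tuba1c, with a median of 14.9. Not every dense window ranked as low: 13 regions near Csnk1a1 and Il17b had a median of 30.9 and reached 94.6, with 2 called. Of the 282 regions in the 23 windows, 9 were called in covered bp, beside 3.55% of all regions outside genes. With the block it was 15 (5.32%, beside 6.86%).

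At the other end, 63 regions ranked at least 99 in each list. They were narrow, with a median width of 265 bp, stood alone (median 0 bp of other peaks in 10 kb) and lay far from genes (median 105322 bp), and 49 of them had no annotated gene within 1 kb. None was called, with or without the block. The 5 with the highest lowest rank, at 99.98 or above in all 4 libraries, lay nearest to Abcb11, Gm9631, Chrm3, Tra2a and G6pd2. The Abcb11 region, 13.0 kb from the gene at chr2:69355491-69355711, covered 172 and 221 bp in OPC and 195 and 201 bp in OL. In contrast, the 219 regions that ranked at most 5 in each list were as narrow (254 bp) but had a median of 1188 bp of other peaks around them and lay 7585 bp from a gene. The background behind the folds is not given, and its part in these 2 sets was not tested. Of the regions within 1 kb of a non-coding gene end, 2136 in all, 18 rose and 48 fell. Over all regions outside genes 1.51% rose and 2.04% fell. With the block, 35 rose and 85 fell at these ends (5.62%, beside 6.86% of all regions outside genes). The strongest 5 at non-coding gene ends lay nearest to Pdcd1, Abl2, Chst2, Cd209e and 4930591A17Rik, at ranks from 99.7 upward in every library.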

How the data were processed

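The submitters' processing notes name MACS2, Picard, Bowtie2 2.3.2 and Trim Galore 0.3.1, with the build mm10. For MACS2 settings and any Tn5 shift the sources used here give nothing. Each deposited list holds the peaks of 1 library, with the authors' score, their fold enrichment as a ratio, and their −log10 q (at least 3.00) and −log10 p. No reads are counted in these files, and the depth is unknown. The lists held 129403, 124864, 127041 and 152406 peaks (129O1 OPC, EpiSC5 OPC, 129O1 OL, EpiSC5 OL) on chromosomes 1 to 19, X and Y; 131 to 189 others per list were left out.

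Genes, promoters and miRNAs came from RefSeq GRCm38.p6 tables, which carry no strand or exons for genes; no genome sequence was used, so regions are given by position only. Percentile fold ranks and median-centred log2 covered bp of all 55402 shared regions were fitted with limma 3.58.1 (R 4.3.3; mean-variance trend, two-sided, Benjamini-Hochberg over all shared regions). The code was tested on simulated data with large changes and less noise than these libraries. That test does not measure power or false calls in the fits here. Cell lines pair the libraries; EpiSC5 minus 129O1 differences in OPC and OL correlated at r = 0.18 (rank) and 0.13 (covered bp) over all shared regions.

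The regions, measures and 12 gene lists were chosen with earlier results of these data known. Named regions were the 12 largest calls per direction and measure, the 5 strongest, list members with a call (otherwise the strongest), the densest windows, the 3 on either side of each limit, the 5 farthest from a gene and the 5 strongest at non-coding gene ends; promoters, loci, miRNAs and uncalled rank changes were picked after their values were seen. A few regions that meet this rule are not reported here by name.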

Additional observations from a re-analysis of the deposited data

Results flagged for a closer look

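Of 40 regions near list genes with a call in covered bp, 9 had a fold rank that moved opposite ways in the 2 cell lines, and in 2 both moves exceeded 10 points, a limit set after seeing the data. Near Sox5 (102 kb) the OL minus OPC difference in rank was 63.2 in the 129O1 line and -11.5 in the EpiSC5 line. Near Bmp4 (18.4 kb) it was 10.8 in 129O1 and -16.1 in EpiSC5. With 1 library per line and cell type, the difference between the lines was not tested.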

How the results depend on the processing

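Peaks limit what can be seen: a region below the caller's threshold in 1 library is absent here, a covered length cannot go below the shortest peak, and depth is unknown. Leaving out any 1 library left 0 called regions in each direction for both measures (range 0 to 0). For covered bp (278 higher, 374 lower), the counts were 84 and 84 with the best 50% of each list by q, 0 and 0 where peaks had to cover 50% of the region in each list (28 and 1 of the called regions met this), 961 and 1194 in a fit over all merged regions, 158 and 562 without scaling, 796 and 1516 scaled to list totals, and 565 and 695 with the replicate block for the cell line. Those 278 and 374 stayed called under the block. With 200 bp around each summit they were 395 and 70; there a region with 1 peak in each list has the same length everywhere, and the variance trend could not be estimated. Counts stayed within 1.5 times for regions under 1000 bp, more than 5 kb from genes, with non-coding genes left out and with peaks up to 100 bp apart merged. Added after seeing the data, covered bp as a percentile rank gave 271 and 271, and leaving out windows with 10 or more regions 275 and 368.

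Fold rank gave 0 calls under each alternative except ranking by −log10 q (1069 higher, 924 lower, with no background share given). The replicate block gave 0. The smallest adjusted p over the fold alternatives was 0.0810 to 0.260. The median rank difference of -1.45 became -0.59 as a mean over regions and ran from -1.81 to -1.10 without 1 library; the median covered bp difference ran from -90 to -25 bp.

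Summit windows reversed 11 named regions (log2 difference): Adrb1, Ccnd2 (114 kb), Dusp6, Irx5, Sox4, Tcf12 and Zbtb10 at 0.50, Cgn at 0.0173, Ift22 at 0.79, Bmp4 at -1 and Septin9 (136 kb) at -0.79. This setting counts peaks, since each has the same length there: the Bmp4 region held 2, 2, 1 and 1. No other alternative reversed a named region.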
